A study of Mus musculus with 8 samples.

Results

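Chemokines are small secreted or membrane-bound proteins that attract leukocytes, and epithelial cells make a number of them. The 10 chemokine genes described here were taken by symbol from the 55414 genes of the table: Cxcl1, Cxcl2, Cxcl5, Cxcl10, Cxcl12, Cxcl16, Cx3cl1, Ccl2, Ccl20 and Ccl28. All 10 were found, each on 1 row, and genes with few transcripts were kept. They were measured by RNA-seq in mpkCCD cells, a clonal line from the cortical collecting duct of mice that carry a viral large T antigen transgene. The first group had 4 libraries from cells exposed for 24 h to tolvaptan (50 nM), an antagonist of the vasopressin V2 receptor, with dDAVP (0.1 nM), an agonist of that receptor, still present. The second group had 4 libraries from cells given dDAVP (0.1 nM) and the vehicle of tolvaptan. Cells of both groups were therefore dDAVP-stimulated, and libraries without dDAVP were not analysed here. According to the methods, the cells grew on permeable supports, and the medium used before experiments contained dexamethasone, a synthetic glucocorticoid. The sample records do not say whether the 4 libraries of a group were separate cultures, so p-values reflect the spread between libraries, which may be technical.

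Chemokines bind G protein-coupled receptors on leukocytes, and their names give the spacing of the first cysteines (CXC, CC or CX3C). Cxcl1, Cxcl2 and Cxcl5 attract neutrophils through Cxcr2, and the genes of the first pair are textbook targets of NF-kB. Cxcl10 is an interferon-induced ligand of Cxcr3, and Cxcl12 is a ligand of Cxcr4 and of the scavenging receptor Ackr3. Ccl2 attracts monocytes through Ccr2. Ccl20 and Ccl28 are made by many mucosal epithelia and act on Ccr6 and on Ccr10 and Ccr3. Cx3cl1 and Cxcl16 are made as membrane-anchored proteins whose extracellular parts can be shed by proteases.

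Tolvaptan was accompanied by lower Ccl28 and Cxcl5 and by slightly higher Cxcl16, whereas the other 7 genes did not pass the test. Ccl28 fell to a mean of 7.12 TPM under tolvaptan, against 13.9 TPM under dDAVP alone. Cxcl5 fell 3.24-fold, to a mean of 0.595 TPM under tolvaptan against 1.93 TPM under dDAVP alone. Cxcl16 rose to a mean of 47.3 TPM under tolvaptan, against 38.2 TPM under dDAVP alone, a call that was lost in several settings. Cx3cl1, the most abundant of the 10, averaged 82.3 TPM under tolvaptan and 81.8 TPM under dDAVP alone. TPM, an abundance of transcripts scaled for their length and to a fixed total per library, allow levels of different genes to be set side by side, but how many reads lie behind a value is unknown. In these bulk libraries, fewer cells making a transcript and less transcript per cell cannot be told apart.

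**Figure D1:**
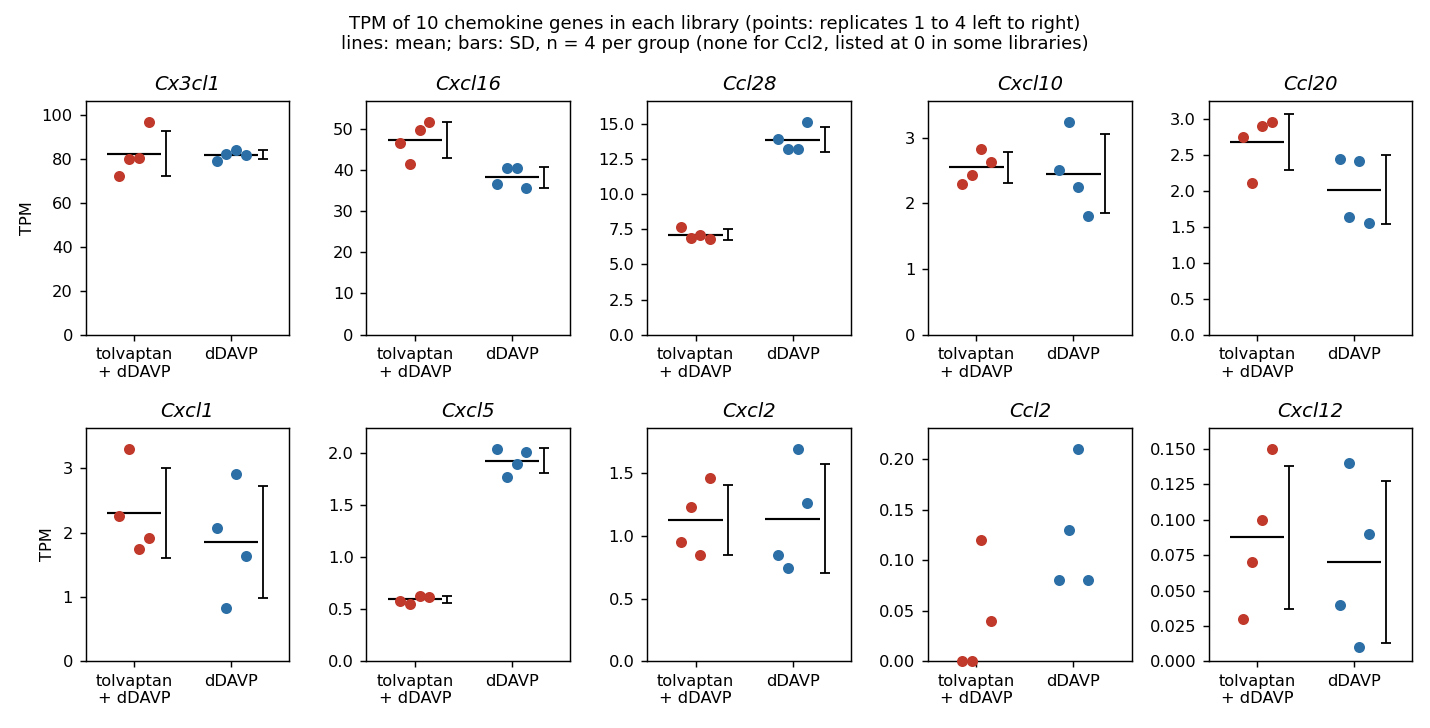
TPM of the 10 chemokine genes, 1 panel per gene with its own vertical axis starting at 0. Points are libraries (replicates 1 to 4 from left to right; tolvaptan plus dDAVP in red, dDAVP alone in blue), lines are means and bars are SD over 4 libraries, with neither drawn for Ccl2. The red and blue points are separate for Cxcl16, Ccl28 and Cxcl5 and overlap for the other 7 genes.

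Genes with more than 10 TPM in at least 1 library were compared on the log2(TPM + 1) scale by limma, with Benjamini-Hochberg adjustment over all 9943 such genes. Of the chemokine genes, 3 passed this filter (Cx3cl1, Cxcl16 and Ccl28), Ccl28 only through the libraries with dDAVP alone. At an adjusted p under 0.05, 1 of these 3 was lower and 1 was higher under tolvaptan, and among all genes tested 16.1% were called, 6.1% lower and 10% higher. Of the called genes, 62.1% were higher, and only 41.1% were once all libraries had been given a common median. The 7 chemokine genes under the filter were read from a second fit over all 39780 genes above 0 TPM in at least 1 library, in which 2.31% of genes were called, 1.06% lower and 1.25% higher. Of those 7, Cxcl5 was lower and none was higher. Of the 39780 genes, 49.7% averaged under 0.106 TPM over the 8 libraries, against 1.26 TPM for Cxcl5. Genes so low can hardly be called on this scale. The shares over all expressed genes may therefore be too low a background for genes at the level of Cxcl5. An unadjusted limma p under 0.05 was reached by the same 3 genes of the 10 and no other, against 30.9% of the genes over 10 TPM and 13.7% of all expressed genes. In that second fit Ccl28 was lower as well, and Cxcl16 did not pass. The groups did not overlap for 3 of the 10 genes, and this was so for 23.1% of the genes over 10 TPM (7.99% lower and 15.1% higher) and 9.55% of all expressed genes (2.49% lower and 7.06% higher). The median log2 fold change was 0.05 over the genes above 10 TPM and 0.03 over all expressed genes.

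**Figure D2:**
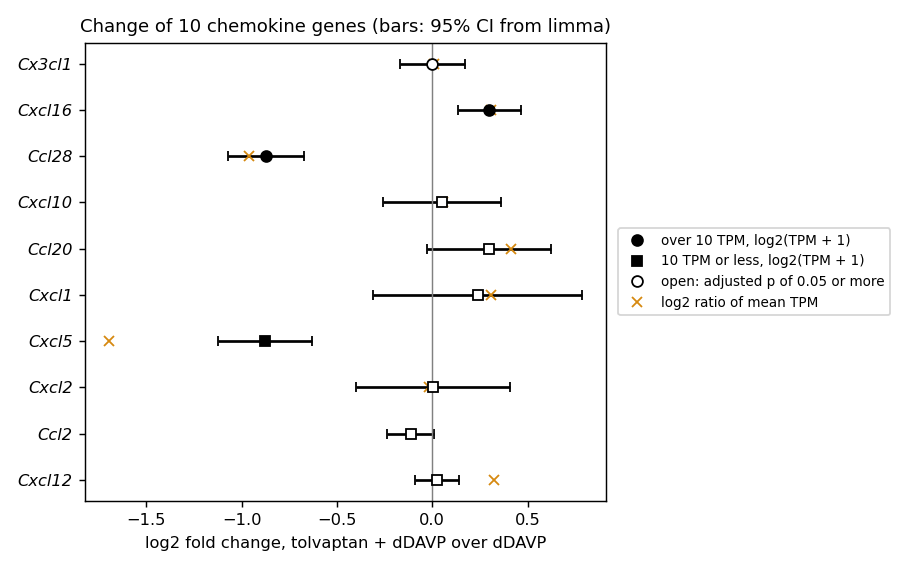
Log2 fold change (tolvaptan plus dDAVP over dDAVP alone) of the 10 chemokine genes on the log2(TPM + 1) scale, with 95% confidence intervals from limma. Circles are genes over 10 TPM, squares are genes at or under it, filled symbols passed an adjusted p of 0.05 and crosses give the log2 ratio of the group mean TPM, left out for Ccl2. Only Ccl28 and Cxcl5 are filled below 0 and only Cxcl16 is filled above 0, and for Cxcl5 the cross lies at -1.70, far left of its square at -0.88.

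The membrane-anchored chemokines were the most abundant. Cx3cl1 (ENSMUSG00000031778), known as fractalkine, stood at 72.4, 79.8, 80.2 and 96.8 TPM under tolvaptan, against 79.1, 82.3, 84.2 and 81.8 TPM under dDAVP alone. The tolvaptan libraries lay on both sides of the dDAVP libraries and were more spread (SD 10.3 TPM, against 2.11 TPM under dDAVP alone, n = 4 each). Its log2 fold change was 0.0005, with a 95% confidence interval of -0.17 to 0.17 (limma adjusted p = 0.998). The interval thus leaves room for changes of up to 0.17 log2 units in either direction.

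Cxcl16 (ENSMUSG00000018920) stood at 46.5, 41.5, 49.6 and 51.6 TPM under tolvaptan, against 36.5, 40.5, 40.3 and 35.5 TPM under dDAVP alone. Each tolvaptan library was above each dDAVP library, but tolvaptan replicate 2 was close to dDAVP replicates 2 and 3. On the log2 scale the difference was 0.30 (standard error 0.07, 95% confidence interval 0.13 to 0.46, limma adjusted p = 0.024), and the exact permutation test over libraries gave a 2-sided p of 0.0286, the smallest that 4 against 4 allows. The call was not made when all expressed genes were tested (limma adjusted p = 0.0984), nor in 5 of the 8 fits without 1 library (dDAVP replicate 1, 3 or 4, or tolvaptan replicate 1 or 3), where the adjusted p from limma ran from 0.0508 to 0.0886. Of the 50-base words in the Cxcl16 transcripts, 16.9% also occur, on either strand, in transcripts of Zmynd15, the gene next to it. Zmynd15 averaged 0.662 TPM under tolvaptan and 0.407 TPM under dDAVP alone.

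The ratio of Cx3cl1 to Cxcl16 within a library was 1.56 to 1.92 under tolvaptan and 2.03 to 2.30 under dDAVP alone, so that these ranges did not overlap. The summed TPM of the 10 genes averaged 146 ± 13.4 under tolvaptan and 144 ± 4.26 under dDAVP alone (SD, n = 4 each). Of this sum, Cx3cl1 made up 56.2% under tolvaptan and 57.0% under dDAVP alone on average, and Cxcl16 32.4% and 26.6% in the same order of groups.

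Of the mucosal chemokines, Ccl28 fell and Ccl20 did not pass the test. Ccl28 (ENSMUSG00000074715) stood at 7.68, 6.90, 7.11 and 6.80 TPM under tolvaptan, against 13.9, 13.3, 13.2 and 15.2 TPM under dDAVP alone. The highest tolvaptan library was thus far under the lowest dDAVP library. The means were 7.12 ± 0.393 TPM under tolvaptan and 13.9 ± 0.906 TPM under dDAVP alone (SD, n = 4 each), which is 1.95-fold lower. The log2 fold change of Ccl28 was -0.87 (standard error 0.09, 95% confidence interval -1.07 to -0.67, limma adjusted p = 0.000146; exact permutation p = 0.0286, 2-sided). It remained past an adjusted p of 0.05 in each of the 8 fits without 1 library, with a limma adjusted p of at most 0.00122. Only the libraries with dDAVP alone exceeded 10 TPM, so Ccl28 passed that filter through the group where it is high. In the fit of all expressed genes, which does not use the filter, its limma adjusted p was 0.000257. Ccl28 is among the genes that the study lists as decreased, and that list was drawn from these libraries.

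The ratio of Cxcl16 to Ccl28 was 6.01 to 7.59 under tolvaptan and 2.35 to 3.06 under dDAVP alone. Ccl28 made up 4.92% of the summed chemokine TPM under tolvaptan and 9.69% under dDAVP alone on average.

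Ccl20 (ENSMUSG00000026166) stood at 2.75, 2.11, 2.91 and 2.96 TPM under tolvaptan, against 2.44, 1.64, 2.42 and 1.56 TPM under dDAVP alone. In 3 of the tolvaptan libraries it was above the dDAVP range, and replicate 2 was inside it. The log2 fold change was 0.30, with a 95% confidence interval of -0.03 to 0.62 (limma adjusted p = 0.417; exact permutation p = 0.114, 2-sided).

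Among the neutrophil-attracting chemokines, only Cxcl5 differed between the groups by this test. Cxcl5 (ENSMUSG00000029371) stood at 0.58, 0.55, 0.63 and 0.62 TPM under tolvaptan, against 2.04, 1.77, 1.89 and 2.01 TPM under dDAVP alone. The groups were far apart and each was narrow, with an SD of 0.037 TPM under tolvaptan and 0.123 TPM under dDAVP alone (n = 4 each). The log2 fold change of Cxcl5 was -0.88 (standard error 0.11, 95% confidence interval -1.12 to -0.63, limma adjusted p = 0.00414; exact permutation p = 0.0286, 2-sided). At so few TPM the added 1 draws the fold change toward 0: with 0.1 added in its place it was -1.54, with 5 added it was -0.31, and the log2 ratio of mean TPM was -1.70. It passed an adjusted p of 0.05 under each of these additions, and in each of the 8 fits without 1 library (limma adjusted p of at most 0.0183). It was not called with a term for replicate number in the fit.

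Cxcl1 (ENSMUSG00000029380) stood at 2.25, 3.30, 1.75 and 1.92 TPM under tolvaptan, against 2.07, 0.83, 2.91 and 1.63 TPM under dDAVP alone. Its libraries varied within both groups, and the groups overlapped. Its log2 fold change was 0.24, with a wide 95% confidence interval of -0.31 to 0.79 (limma adjusted p = 0.616). Without dDAVP replicate 2, the lowest library, it was 0.04.

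Cxcl2 (ENSMUSG00000058427) stood at 0.95, 1.23, 0.85 and 1.46 TPM under tolvaptan, against 0.85, 0.74, 1.69 and 1.26 TPM under dDAVP alone. The groups overlapped over nearly their whole range. Its log2 fold change was 0.00404 (95% confidence interval -0.40 to 0.41, limma adjusted p = 1). The ratio of Cxcl1 to Cxcl5 was 2.78 to 6.0 under tolvaptan and 0.469 to 1.54 under dDAVP alone, so that Cxcl5 was the lowest of these 3 genes in each tolvaptan library.

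The remaining chemokines were low. Cxcl10 (ENSMUSG00000034855) stood at 2.29, 2.44, 2.83 and 2.63 TPM under tolvaptan, against 2.51, 3.24, 2.25 and 1.81 TPM under dDAVP alone. The tolvaptan libraries lay inside the dDAVP range, and the log2 fold change was 0.05 (95% confidence interval -0.26 to 0.36, limma adjusted p = 0.856). Ccl2 (ENSMUSG00000035385) was listed at 0, 0, 0.12 and 0.04 TPM under tolvaptan, against 0.08, 0.13, 0.21 and 0.08 TPM under dDAVP alone. A listed 0 need not mean that no transcript was present, since 5 of the 13 mitochondrial mRNAs are also listed at 0 in every library. The groups of Ccl2 overlapped and it did not pass (95% confidence interval of the log2 fold change -0.24 to 0.01, limma adjusted p = 0.404). Cxcl12 (ENSMUSG00000061353) was listed at 0.03, 0.07, 0.10 and 0.15 TPM under tolvaptan, against 0.04, 0.14, 0.01 and 0.09 TPM under dDAVP alone, which overlap (limma adjusted p = 0.82). At these levels the log2(TPM + 1) scale shows little of any change in Ccl2 or Cxcl12.

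The order of levels was led by Cx3cl1, then Cxcl16 and Ccl28 in both groups, and the libraries of these 3 did not overlap with each other. Below them, Ccl20, Cxcl10 and Cxcl1 followed under tolvaptan at means of 2.68, 2.55 and 2.31 TPM, and each of these neighbours overlapped with the next. With dDAVP alone, Cxcl10, Ccl20, Cxcl5, Cxcl1 and Cxcl2 followed at means of 2.45, 2.02, 1.93, 1.86 and 1.14 TPM, and again each overlapped with the next. Cxcl5 was thus the sixth of the 10 under dDAVP alone, and it was the eighth under tolvaptan, where its libraries were all below those of Cxcl2.

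**Figure D3:**
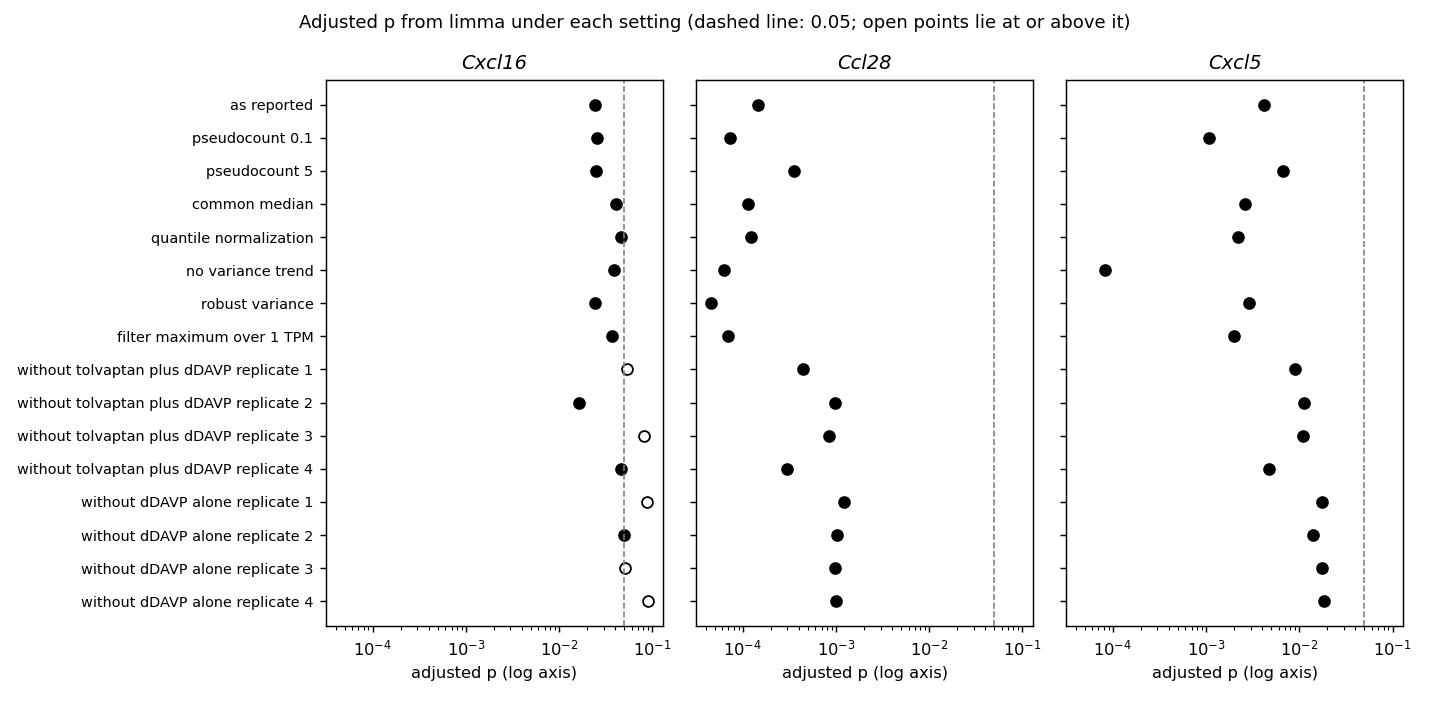
Adjusted p from limma (log axis) for Cxcl16, Ccl28 and Cxcl5 in the fit as reported and in other settings, among them the 8 fits without 1 library. The fit with a term for replicate number is not drawn, and neither Cxcl5 (limma adjusted p = 0.0743) nor Cxcl16 (0.0679) was called in it. Also not drawn are the fit without a filter, where Cxcl16 was not called (limma adjusted p = 0.0984), and the filter of over 10 TPM in 4 libraries. The dashed line marks 0.05 and open points lie at or above it. Ccl28 and Cxcl5 stay left of the line in each setting drawn, and Cxcl16 is near it in most and has open points in 5 of the fits without 1 library.

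The sequence before the start of a gene was compared with these changes for the 7 chemokine genes found in the RefSeq promoter table (GRCm38.p6). Cxcl5, Cxcl16 and Ccl2 were not among them. In the 250 bases before the start, 8 short motifs were searched on both strands. The kappaB letters GGGNN followed at once by TTTCC, a form of the site that NF-kB binds, occurred in Cxcl1, Cxcl2 and Ccl20, while 1.41% of the 32851 promoters in the table hold them. They were not found in Cxcl10, Cxcl12, Cx3cl1 or Ccl28. Only these letters and the second kappaB form named below were searched, so other forms of the site may lie in any of these promoters. The 3 genes with these letters did not pass the test, and in Ccl28, which fell, none of the 8 motifs was found. The other motifs were a second kappaB form GGAAATCC (in 1.03% of promoters), the cAMP response element TGACGTCA (1.55%) and its part TGACGT (6.47%), the AP-1 site TGANTCA (6.75%), the C/EBP site TTGCNNAA (9.56%), the interferon-type repeat of GAAA, NN and GAAA (2.98%) and the TATA box TATAAA (12.4%). TGACGT is part of TGACGTCA, so these overlap. Of these, TGACGT occurred in Cxcl1, and TGANTCA and the interferon-type repeat both occurred in Cxcl10. The letters TATAAA occurred in Cx3cl1, where they begin only 6 bases before the start. A match of letters is a description and does not show that a factor binds there. The 4 sequences below are shown because they set the 3 genes with kappaB letters beside Ccl28. They run 5′ to 3′ along the gene's strand, with matches to these kappaB letters on either strand in capitals, and are from chr5:90890995-90891244, chr5:90903649-90903898, chr1:83116516-83116765 and chr13:119623569-119623818 (plus strand, GRCm38.p6, RefSeq).
Cxcl1: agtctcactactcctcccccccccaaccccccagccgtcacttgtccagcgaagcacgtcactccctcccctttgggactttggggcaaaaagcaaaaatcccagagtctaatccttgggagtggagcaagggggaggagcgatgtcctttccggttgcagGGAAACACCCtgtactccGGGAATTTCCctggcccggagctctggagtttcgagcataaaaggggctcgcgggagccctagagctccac
Cxcl2: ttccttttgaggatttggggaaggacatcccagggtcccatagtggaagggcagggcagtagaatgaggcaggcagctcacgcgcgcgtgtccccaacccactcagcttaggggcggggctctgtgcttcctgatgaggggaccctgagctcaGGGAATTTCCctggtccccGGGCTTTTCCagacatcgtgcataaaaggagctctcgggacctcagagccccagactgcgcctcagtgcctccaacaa
Ccl20: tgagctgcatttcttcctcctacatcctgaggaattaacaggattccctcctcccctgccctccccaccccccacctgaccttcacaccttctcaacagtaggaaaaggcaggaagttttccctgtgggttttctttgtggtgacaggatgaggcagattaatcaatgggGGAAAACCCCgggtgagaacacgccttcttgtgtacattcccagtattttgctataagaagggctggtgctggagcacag
Ccl28: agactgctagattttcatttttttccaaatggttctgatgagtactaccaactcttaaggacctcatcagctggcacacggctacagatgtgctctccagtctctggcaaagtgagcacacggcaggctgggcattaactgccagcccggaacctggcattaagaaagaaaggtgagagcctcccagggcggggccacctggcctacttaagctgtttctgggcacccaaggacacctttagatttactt

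The 2 matches in Cxcl1 begin 89 bases (opposite strand) and 71 bases before the start, and Cxcl2 has 2, at 97 and 78 bases. The single match in Ccl20 begins 80 bases before the start and reads on the opposite strand. The Ccl28 sequence is therefore printed without capitals.

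The other chemokine ligands were mostly at or near 0 TPM. Of 27 listed, 22 did not exceed 1 TPM in any library and 8 of these were listed at 0 throughout. The 2 that could be tested above 10 TPM were Ccl25, an intestinal and thymic chemokine, at means of 15.6 TPM under tolvaptan and 14.3 TPM under dDAVP alone, and Ccl27a, a skin chemokine that shares the receptor Ccr10 with Ccl28, at 12.7 TPM under tolvaptan and 9.37 TPM under dDAVP alone. Neither passed (adjusted p = 0.646 for Ccl25 and 0.0801 for Ccl27a from limma), although Ccl27a was higher in each tolvaptan library than in any dDAVP library. The platelet chemokine gene Ppbp averaged 3.18 TPM under tolvaptan and 2.37 TPM under dDAVP alone, Ccl5 1.65 and 1.77 TPM in the same order, and Ccl17 1.57 and 0.863 TPM. None of these 3 passed when all expressed genes were tested (adjusted p from 0.435 to 0.871 from limma).

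Of 23 chemokine receptors, Ackr3 alone was above 1 TPM. This receptor, which binds and clears Cxcl12, averaged 14.2 TPM under tolvaptan and 7.95 TPM under dDAVP alone (log2 fold change 0.77, limma adjusted p = 0.000531). It exceeded 10 TPM only under tolvaptan (13.47 to 14.98 TPM, against 7.17 to 9.18 TPM under dDAVP alone). In the fit of all expressed genes, which does not use that filter, Ackr3 was called as well (limma adjusted p = 0.00146). Its ligand Cxcl12 did not exceed 0.15 TPM. The leukocyte receptors of the chemokines described here were all low: Cxcr2 did not exceed 0.13 TPM, Cxcr3 0.03 TPM, Cxcr4 0.14 TPM, Cxcr6 0.31 TPM, Cx3cr1 0.06 TPM, Ccr2 0.04 TPM and Ccr10 0.26 TPM. Ccr6, the receptor of Ccl20, was listed at 0.05, 0.05, 0.98 and 0.07 TPM under tolvaptan and at 0 in all 4 libraries under dDAVP alone. It did not pass when all expressed genes were tested (limma adjusted p = 0.514).

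In 5 lists of genes that regulate or process chemokines, 12 of 70 tested genes passed, 5 lower and 7 higher, which is 17.1% and near the 16.1% of all genes over 10 TPM (6.1% lower and 10% higher). Of 12 tested genes of NF-kB subunits and inhibitors, 1 fell, with a median log2 fold change of -0.03 over the 12 (0.05 over all genes tested). The gene that fell was Nfkbiz, a nuclear cofactor of NF-kB, at 19.4, 20.8, 20.2 and 22.4 TPM under tolvaptan, against 30.5, 29.8, 32.5 and 30.9 TPM under dDAVP alone (log2 fold change -0.56, limma adjusted p = 0.000159). The groups of Nfkbiz were separate, and the call was made in each of the 8 fits without 1 library. In the fit of all expressed genes, the inhibitor gene Tnfaip3 was called as well, at 7.22, 7.41, 7.19 and 7.08 TPM under tolvaptan, against 6.03, 5.75, 5.77 and 5.53 TPM under dDAVP alone (log2 fold change 0.28, limma adjusted p = 0.0476). Its groups did not overlap, but the call was lost in 6 of the 8 fits without 1 library and with either scaling that centers the libraries (limma adjusted p up to 0.232). The subunit genes Rela and Nfkb1 and the inhibitor Nfkbia had log2 fold changes of 0.16, 0.02 and -0.10 and did not pass (adjusted p from limma 0.126, 0.852 and 0.301), apart from Rela without tolvaptan replicate 1 (limma adjusted p = 0.0344) and Nfkbia without tolvaptan replicate 4 (limma adjusted p = 0.0169). Of 20 receptors and adaptors that act upstream of chemokine genes, 1 passed, with a median log2 fold change of 0.05 over the 20. It was Tlr4, the lipopolysaccharide receptor (log2 fold change -0.37, limma adjusted p = 0.0482), and it was not called in 7 of the 8 fits that left out 1 library (limma adjusted p up to 0.134). In the fit of all expressed genes, Tlr4 was not called (limma adjusted p = 0.166), and the only gene of this list that was is Il6ra, a receptor of interleukin 6. Il6ra stood at 2.84, 3.42, 3.20 and 3.53 TPM under tolvaptan, against 6.14, 5.0, 5.44 and 5.22 TPM under dDAVP alone (log2 fold change -0.60, limma adjusted p = 0.011). Its groups were separate, and the call was made in each of the 8 fits without 1 library (limma adjusted p up to 0.0456).

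Of 11 genes of the interferon axis, 2 fell, Ifit1 and Isg15, both induced by interferon, and the median log2 fold change over the 11 was 0.01. The share called lower among all genes over 10 TPM was 6.1%. Ifit1 had a log2 fold change of -0.43 (limma adjusted p = 0.000577). Isg15 had one of -0.27 (limma adjusted p = 0.0284) and was not called in 6 of the 8 fits without 1 library. The transcription factor gene Irf1 had a log2 fold change of 0.01, or -0.03 with either scaling that centers the libraries, and did not pass (limma adjusted p = 0.883).

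Of 14 proteases and inhibitors, 1 fell and 5 rose, with a median log2 fold change of 0.19. Among all genes over 10 TPM, 6.1% were called lower and 10% higher. Ctsd, a lysosomal protease, fell by 0.46 on the log2 scale, and the metalloprotease inhibitor Timp2 had a log2 fold change of 0.52 (adjusted p = 0.000199 and 6.78e-05 from limma). The lysosomal protease Ctsl and the inhibitor Timp3 had log2 fold changes of 0.46 and 0.39 (adjusted p = 0.00335 and 0.0155 from limma), and Timp3 was not called without dDAVP replicate 1 or 2. The proteases Mme and Bace1 were the other genes that rose, and these calls were lost in 3 and 5 of the 8 fits without 1 library and with 1 of the scalings. Adam10 and Adam17, proteases that shed Cx3cl1 and Cxcl16, had log2 fold changes of 0.05 and -0.03 and did not pass (adjusted p = 0.749 and 0.802 from limma). Of 13 genes that act on the stability of cytokine mRNAs, 2 passed, Tia1 and Cnot1, both higher under tolvaptan (log2 fold changes 0.19 and 0.19, adjusted p = 0.0289 and 0.031 from limma), and these calls were lost in 5 and 4 of the 8 fits without 1 library, for Tia1 with either scaling that centers the libraries and for Cnot1 with 1 of them. The median over the 13 was 0.09. Zfp36, which speeds the decay of cytokine mRNAs, had a log2 fold change of -0.19 (limma adjusted p = 0.0904), and it was called with either scaling that centers the libraries and without tolvaptan replicate 4.

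**Figure D4:**
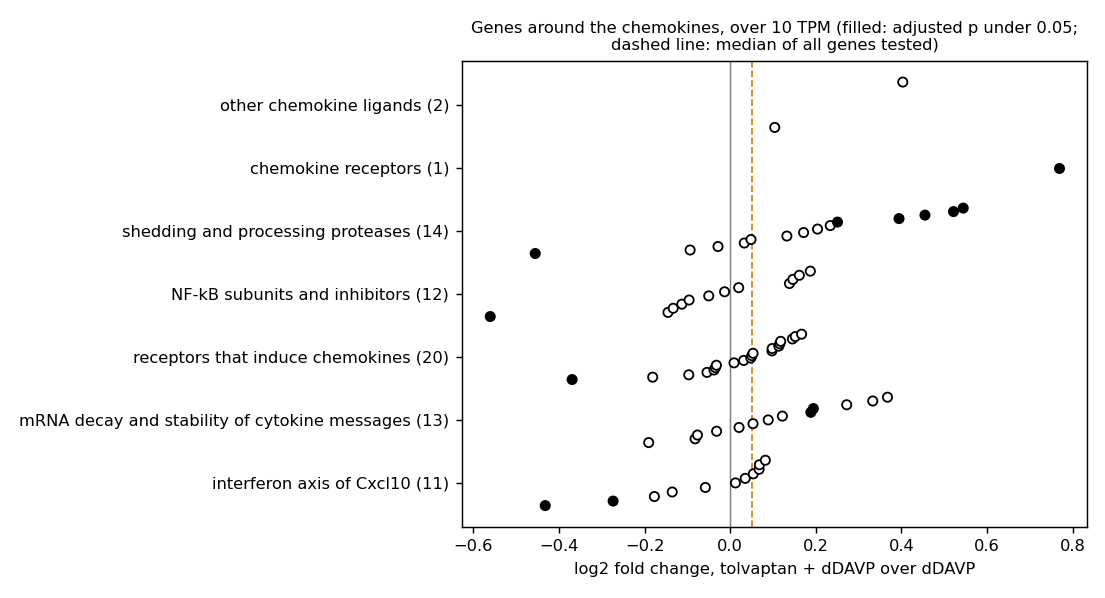
Log2 fold change (tolvaptan plus dDAVP over dDAVP alone) of each tested gene in 7 lists of genes that surround the chemokines, with the number of genes in parentheses. Filled points passed an adjusted p of 0.05 from limma, and the dashed line is the median of all genes tested (0.05). The farthest filled points are Ackr3 at 0.77 and Nfkbiz at -0.56. Ackr3 exceeded 10 TPM only under tolvaptan.

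Of 11 principal cell and epithelial markers listed, 10 exceeded 1 TPM in at least 1 library. Aqp2, the vasopressin-regulated water channel, averaged 272 TPM under tolvaptan and 3050 TPM under dDAVP alone. Of the 10 markers tested, 5 were lower and 2 were higher under tolvaptan. Among all genes over 10 TPM, 6.1% were called lower and 10% higher. The list of 11 summed to 6714 to 7980 TPM under tolvaptan and 11739 to 12308 TPM under dDAVP alone. Aqp2 is part of this sum, so the sum does not show how the other markers changed. The part of these markers in the chemokine differences was not tested. Of 10 leukocyte markers, 7 stayed at or under 0.68 TPM in every library, among them Ptprc (up to 0.68 TPM), Adgre1 (up to 0.03 TPM) and Itgam (up to 0.04 TPM). The other 3 were Cd14, at means of 103 TPM under tolvaptan and 116 TPM under dDAVP alone, Csf1r at 18.2 and 14.9 TPM and Cd68 at 5.78 and 5.98 TPM in the same order. The list summed to 117 to 140 TPM under tolvaptan and 132 to 145 TPM under dDAVP alone. Csf1r had a log2 fold change of 0.28 (limma adjusted p = 0.0385) and was not called in 6 of the 8 fits without 1 library or after either scaling that centers the libraries. The part of Csf1r in these differences was not tested either. The 8 fibroblast and smooth muscle markers summed to at most 1.62 TPM and the 6 endothelial markers to 0.48 to 0.72 TPM under tolvaptan and 0.08 to 0.32 TPM under dDAVP alone. The 6 intercalated cell markers summed to 46.2 to 77.7 TPM under tolvaptan and 42.7 to 71.8 TPM under dDAVP alone, and Atp6v1b1 alone was above 1 TPM.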

How the data were processed

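The authors used STAR and the Ensembl release 106 mouse genome to align paired-end reads and RSEM to make TPM, versions not given in the sources used here, and the deposited table holds 1 TPM value per gene for each of the 8 libraries. The other 2 deposited value columns give each gene's lowest and highest TPM and were used only in a check. No counts were used here, so depth is unknown and no counting interval is given. The columns are named Ctr and Tol with a number, words that the sample titles do not use; Tol was read as tolvaptan plus dDAVP, Ctr as dDAVP alone, and the number as the replicate.

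Log2(TPM + 1) values were compared with the limma package 3.58.1 under R 4.3.3 (2-sided, unpaired, with a variance trend), over genes above 10 TPM in at least 1 library as in the study, and over all genes above 0 TPM for the members under that filter. Calls required an adjusted p under 0.05 (Benjamini-Hochberg over all genes in the fit). Intervals are 95%. Single genes were also compared by an exact permutation test over the 70 arrangements of the libraries. The fit over genes above 10 TPM was tested on simulated data, and the fit over all expressed genes was not.

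The members and lists were chosen with earlier results of these data known. Named genes are the 10 members, the genes with the 4 smallest p of each list, chemokine ligands and receptors above 1 TPM, and the 3 genes most alike each called member over 10 TPM. Other genes, among them Rela, Nfkb1, Nfkbia, Tnfaip3, Il6ra, Irf1, Adam10, Adam17, the low receptors and the neighbours of members, were named after their values were seen, and not every gene of the rule is named. Of the interferon list, 1 gene is not reported here. Transcript words of 50 bases were compared in GENCODE M21, another release than the authors used. Matches on the same and on the opposite strand were counted together. Alternatives were pseudocounts of 0.1 and 5, 3 filters, 2 scalings, 2 variance models, the ratio of mean TPM, a block for replicate number and the omission of each library in turn.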

Additional observations from a re-analysis of the deposited data

How the results depend on the processing

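The fall of Ccl28 kept its direction and call in all alternatives, with log2 fold changes from -0.99 to -0.64. Cxcl5 kept its direction, with values from -1.70 to -0.31, and the rise of Cxcl16 kept its direction, with values from 0.25 to 0.36. The sample titles do not say whether same-numbered libraries were paired. The deviations of same-numbered libraries had correlations from -0.07 to -0.0046 over 9943 genes, and 0 of 4 tolvaptan libraries correlated best with its own number. No shared deviation was thus seen, which cannot show how the cultures were set up. With replicate number as a block, 911 genes were called rather than 1601, 1 of the 3 chemokine genes over 10 TPM rather than 2, 1 of all 10 in the fit of every expressed gene rather than 2, and 8 genes of the 7 lists rather than 13. Under that block, Cxcl5 had an adjusted p of 0.0743 and Cxcl16 one of 0.0679 from limma. Without a filter, 920 genes, 1 of the 3 chemokine genes and 8 list genes were called. Without 1 library, 892 to 2237 genes, 1 to 2 of the 3 chemokine genes and 7 to 21 list genes were called, the most without tolvaptan replicate 4. Those fits called 2 of all 10 chemokine genes in the fit of every expressed gene in each case.

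Small changes that did not pass turned sign. With a common median and with quantile normalization, Cx3cl1 had log2 fold changes of -0.0448 and -0.0188, Cxcl2 had -0.0649 and -0.115, Cxcl10 had -0.0161 and -0.0803, and Cxcl12 had -0.0452 and -0.0295. With a pseudocount of 5, Cxcl2 had -0.0014. Without 1 library, the range was -0.0792 to 0.0586 for Cx3cl1, -0.0871 to 0.122 for Cxcl2, -0.0409 to 0.157 for Cxcl10 and -0.0035 to 0.0548 for Cxcl12. The cause was not tested. The fits without 1 library kept the genes of the full filter. The unknown depth limits what can be said of Ccl2 and Cxcl12.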

Other observations

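Over the 8 libraries, the genes with an official symbol whose log2(TPM + 1) values ran most alike to Ccl28 were Gcsh, a subunit of the glycine cleavage system (Pearson r = 0.997), the histone-binding protein gene Rbbp7 (r = 0.995) and Vopp1 (r = 0.994). Gcsh averaged 63.6 TPM under tolvaptan and 108 TPM under dDAVP alone (log2 fold change -0.75, limma adjusted p = 5.33e-06). For Cxcl16 they were Rhno1 (r = 0.98), Zfp428 (r = 0.978) and Hbegf, a ligand of the EGF receptor (r = 0.971). Rhno1 and Zfp428 had log2 fold changes of 0.12 and 0.40 and did not pass (adjusted p = 0.102 and 0.0669 from limma). Hbegf averaged 35.5 TPM under tolvaptan and 29.6 TPM under dDAVP alone (log2 fold change 0.25, limma adjusted p = 0.043), a call lost in 7 of the 8 fits without 1 library and with either scaling that centers the libraries (adjusted p up to 0.134). The libraries fall into the same 2 groups for each of these genes, so the correlations are descriptions and carry no p.

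By the order of protein-coding genes in the RefSeq table (GRCm38.p6), Cxcl5 lies between Rassf6 and the platelet chemokine gene Ppbp. Rassf6 averaged 253 TPM under tolvaptan and 337 TPM under dDAVP alone (log2 fold change -0.41, limma adjusted p = 0.000922), and Ppbp did not pass. Ccl28 lies between Tmem267 and Hmgcs1, an enzyme of cholesterol synthesis, and neither passed (adjusted p = 0.761 and 0.218 from limma). Next to Cxcl16, Med11 had a log2 fold change of 0.18 (limma adjusted p = 0.0282), which was not called in 4 of the 8 fits without 1 library or with either scaling that centers the libraries (adjusted p up to 0.0868).

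Few 50-base words of the other chemokine transcripts occurred, on either strand, in transcripts of another gene. Of those of Cxcl2, 5.84% also occur in its paralog Cxcl3, and of those of Cxcl10, 3.59% occur in Art3. For the other genes apart from Cxcl16 the share was at most 0.693%. None of 20 sets of 4 libraries (10 genes in 2 groups) held a library that stood apart by Dixon's criterion.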
